A study of Mus musculus with 2 samples.

Results

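The AP-1 and EGR genes are transcription factor genes, 10 in number, taken by symbol from the 43346 Ensembl genes of the tables: Fos, Fosb, Fosl1, Fosl2, Jun, Junb, Jund, Atf3, Egr1 and Egr2. All 10 symbols matched 1 entry each. The 2 libraries came from total RNA of stomachs of B6NCrl mouse embryos at embryonic day 14.5, replicates 1 and 2 of a single group, each described as a single stomach of 1 pup and collected on different days. Both carry the same donor identifier. The labels name no genotype beyond the strain, no treatment and no second condition. The sex is labelled as pooled male and female, at odds with a single pup. RNA of more than 200 nt was kept and 10 ng entered each library, with spike-in RNAs.

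AP-1 is a dimer of basic leucine zipper proteins, in most cases a FOS protein with a JUN protein, that binds a short palindrome in DNA. FOS proteins need a JUN partner to bind, whereas JUN proteins also pair with each other. Many of these genes are immediate early genes: they are switched on within minutes by growth factors, stretch or tissue handling, from factors already present in the cell, and their mRNAs are short-lived. Jund is the textbook exception, expressed steadily in most tissues, and Fosl1 and Fosl2 respond later than Fos. EGR proteins are zinc finger factors induced by the same kinase signals. Here Fos, Fosb, Jun, Junb, Atf3, Egr1 and Egr2 are called rapidly inducible, Fosl1 and Fosl2 delayed, and Jund constitutive, by textbook class and not by their values.

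Signals reach many of these genes through sites just before their start, so that sequence is shown for inducible members and for Jund. RefSeq promoter windows on GRCm38.p6, from 250 bases before to 50 after the start, matched 8 of the 10 genes, all but Fosl1 and Egr1. The stretches below run 5′ to 3′ and end at the base before the RefSeq start, or 10 bases past it for Junb. The RefSeq start of Jund lies 1210 bases upstream of its GENCODE M21 start, and those of Egr2 and Atf3 lie inside the M21 genes. The last 7 bases shown for Atf3, which hold its match, and the last 6 shown for Fosb lie in an M21 exon. Capitals mark matches, on either strand, to TATAAA, GCGGGGGCG, the CArG box, TGACG and TGACATCA. The last pair of motifs was chosen after the sequences were seen. Fos (chr12:85473760-85473889, plus strand) and Junb (chr8:84978739-84978858, minus strand) are rapidly inducible genes whose windows hold a TATA box:
Fos: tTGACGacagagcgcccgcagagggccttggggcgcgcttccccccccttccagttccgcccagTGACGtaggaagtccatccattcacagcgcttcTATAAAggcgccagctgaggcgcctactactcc
Junb: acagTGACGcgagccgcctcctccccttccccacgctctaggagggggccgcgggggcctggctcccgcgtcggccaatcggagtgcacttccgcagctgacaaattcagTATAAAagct
Jun (chr4:95052223-95052302, minus strand), Atf3 (chr1:191183334-191183413, minus strand), Fosb (chr7:19310046-19310125, minus strand) and Egr2 (chr10:67537749-67537868, plus strand) are the other rapidly inducible genes with a window:
Jun: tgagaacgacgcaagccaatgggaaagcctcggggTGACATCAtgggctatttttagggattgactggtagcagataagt
Atf3: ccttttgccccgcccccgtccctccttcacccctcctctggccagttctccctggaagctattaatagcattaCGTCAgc
Fosb: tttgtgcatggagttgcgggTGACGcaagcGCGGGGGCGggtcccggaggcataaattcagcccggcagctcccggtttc
Egr2: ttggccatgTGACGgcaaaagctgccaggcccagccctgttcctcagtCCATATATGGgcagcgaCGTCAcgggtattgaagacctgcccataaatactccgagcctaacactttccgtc
Jund (chr8:70697639-70697738, plus strand) is the constitutive gene:
Jund: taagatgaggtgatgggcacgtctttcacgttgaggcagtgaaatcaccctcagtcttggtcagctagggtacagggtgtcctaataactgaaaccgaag

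The core of the cyclic AMP response element, TGACG, lay in the windows of 5 of the 8 genes (Atf3, Egr2, Fos, Fosb and Junb), against 20.8% of 32851 RefSeq windows of the same length. In Fos the matches began 129 and 66 bases before the start, and the TATA box 33 bases before it. TATAAA was found in Fos and Junb, against 13.6% of all windows. In Junb it began at the RefSeq start itself, and the GENCODE M21 start lies 30 bases further on. The CArG box, to which serum response factor binds, was found in Egr2, 72 bases before the start shown, against 1.63% of windows. GCGGGGGCG, a site type bound by EGR proteins, was found in Fosb, 50 bases before the start, and in Fosl2 (2.91% of windows). TGACATCA, which differs from the full cyclic AMP element and is known in Jun as a site for JUN and ATF dimers, was found in Jun, 45 bases before the start (3.62% of windows). No window of the 8 held the full element TGACGTCA (1.79% of windows), the AP-1 element TGANTCA (7.81%) or GCGTGGGCG (0.612%). The EGR sites overlap longer GC-rich runs, and the full cyclic AMP element contains TGACG. Sites outside these windows were not searched.

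Library depth was close between the replicates. The deposited expected counts, which are estimated reads per gene, summed to 25072242 for replicate 1 and to 25599910 for replicate 2, and 23668322 and 23882647 of them were on genes. Spike-ins took 5.60% and 6.71% of the counts, and 12.1% and 14.2% of the deposited TPM total. TPM divides by transcript length and rescales to a fixed total, so it allows levels of different genes to be compared. Values are means ± SD over n = 2 libraries, and a count of 0 allows up to 3 counts in a library. Intervals cover the counting error of reads only, not the spread between libraries. Since reads copied by PCR are not independent molecules, even that error may be understated. Of 8 genes used as stomach markers, among them Barx1, Cym and Tff1, each reached TPM 1 in both libraries. This does not show that the tissue was stomach alone, and pancreas markers are given further on.

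JUN genes stood highest. Detected genes are those that reach TPM 1 in each library, and 7 of the 10 did so, against 34.9% of all genes. Jun, the canonical partner of FOS proteins, had 47.7 TPM in replicate 1 and 40.6 TPM in replicate 2 (44.2 ± 5.03). Jund followed with 38.3 and 28.1 TPM (33.2 ± 7.18), and Junb, a JUN protein that activates more weakly than JUN at many sites, had 17.6 and 12.3 TPM (14.9 ± 3.74). For all 3, replicate 1 was the higher library. Jun ranked above 79.5% of the genes at TPM 1 or more in replicate 1 and above 77.1% in replicate 2. The FOS genes were led by Fosl2, which encodes FRA2, with 11.1 and 10.4 TPM (10.7 ± 0.495). Fos itself had 6.89 and 6.31 TPM (6.60 ± 0.410). Egr1, the widely expressed EGR factor, was close to Fos with 6.26 and 5.35 TPM (5.81 ± 0.643). Atf3, a stress-induced bZIP factor, had 2.85 and 2.13 TPM (2.49 ± 0.509). Fos thus lay in the lower part of detected genes, above 33.1% of them in replicate 1 and 32.5% in replicate 2.

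Fosb, Fosl1 and Egr2 were near the limit of detection. Fosb had 1 count in replicate 1 and 3 in replicate 2 (0.020 and 0.050 TPM). No ratio is given for a gene with 3 counts or fewer in each library. Fosl1, which encodes FRA1, had 4 counts in each library (0.150 and 0.140 TPM). For Egr2, known for its role in hindbrain and Schwann cells, 7 and 4 counts were listed. Its TPM nevertheless read higher in replicate 2 (0.240) than in replicate 1 (0.170), because the effective length assigned to the gene was 2415 bases in replicate 1 and 919 in replicate 2. The posterior mean TPM of Egr2, a second estimate in the deposited tables, was 0.850 and 0.780. The level of Egr2 therefore depends on the estimate, and no direction can be read from it.

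**Figure D1:**
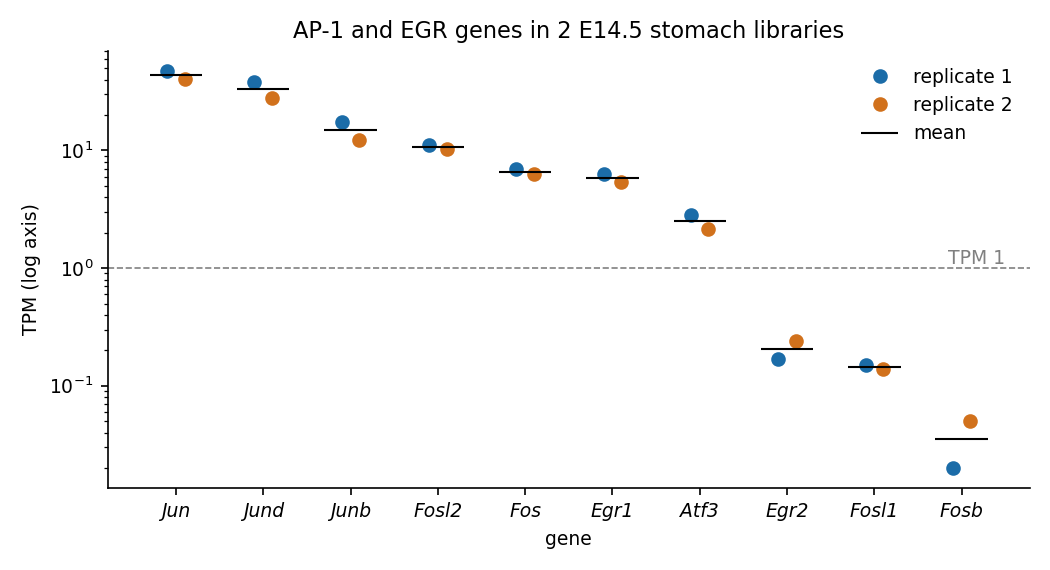
TPM on a log axis for each of the 10 genes, ordered by mean, with a point per library and a line at the mean of n = 2. Jun, Jund, Junb, Fosl2, Fos, Egr1 and Atf3 lie above TPM 1, and Egr2, Fosl1 and Fosb lie at 0.240 or lower.

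The order by TPM was the same in both libraries: Jun, Jund, Junb, Fosl2, Fos, Egr1, Atf3, Egr2, Fosl1, Fosb. No neighbours in this order had overlapping values. Fos, with 6.31 TPM in its lower library, was barely above Egr1, with 6.26 TPM in its higher one. Fos exceeded Egr1 by 1.14-fold on the mean, Jun exceeded Jund by 1.33-fold, and Junb exceeded Fosl2 by 1.39-fold. The TPM of Jund divides by a deposited length of 2878 bases, whereas its GENCODE M21 gene has 1668. With the same counts a shorter length would raise its TPM. The order of Jun and Jund and the Jund share of the JUN sum therefore depend on the gene model. The order of Egr2, Fosl1 and Fosb rests on 1 to 7 counts per gene and library. By counts, which are not divided by length, Fosl2 (1073 and 1067) stood above Junb (515 and 382), and Egr1 (324 and 291) above Fos (224 and 227). Among the other genes of the lists described further on, those next above and next below in mean TPM were Rps6ka1 (44.6) and Btg2 (43.8) for Jun, and Rps6ka3 (6.63) and Srf (6.15) for Fos.

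Summed by family, JUN transcripts outnumbered FOS transcripts. The JUN genes summed to 103.6 TPM in replicate 1 and 81.0 in replicate 2 (92.3 ± 16.0), and the FOS genes to 18.1 and 16.9 TPM (17.5 ± 0.891). The EGR genes summed to 6.43 and 5.59 TPM (6.01 ± 0.594). JUN exceeded FOS by 5.72-fold and 4.80-fold (5.26 ± 0.644). Within the JUN family, Jun held 48.1% ± 2.87 of the sum, Jund 35.8% ± 1.59 and Junb 16.0% ± 1.28. Fosl2 held 61.2% ± 0.290 of the FOS sum and Fos 37.7% ± 0.423, so the delayed gene exceeded the rapid one, by 1.61-fold and 1.64-fold. These shares differed little between the libraries. Fosl1 held 0.829% of the FOS sum and Fosb 0.203%. Egr1 held 96.5% ± 1.17 of the EGR sum, and by posterior mean TPM, an estimate tried after seeing the data, 87.7% in replicate 1 and 87.0% in replicate 2.

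Set out by textbook class, the 7 rapidly inducible genes summed to 81.5 and 67.0 TPM (74.2 ± 10.3), against 38.3 and 28.1 TPM of the constitutive Jund and 11.2 and 10.5 TPM (10.9 ± 0.502) of the delayed genes. The rapidly inducible sum was 2.13-fold and 2.38-fold that of Jund (2.25 ± 0.179). Most of it was Jun. Jund exceeded Fos by 5.56-fold in replicate 1 and 4.46-fold in replicate 2. Both comparisons with Jund rest on its deposited length of 2878 bases. No sample without dissection and no time course is in the series, so the level that handling adds cannot be told apart from the level in the embryo. In bulk tissue, fewer cells of a type and less RNA per cell cannot be told apart either.

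**Figure D2:**
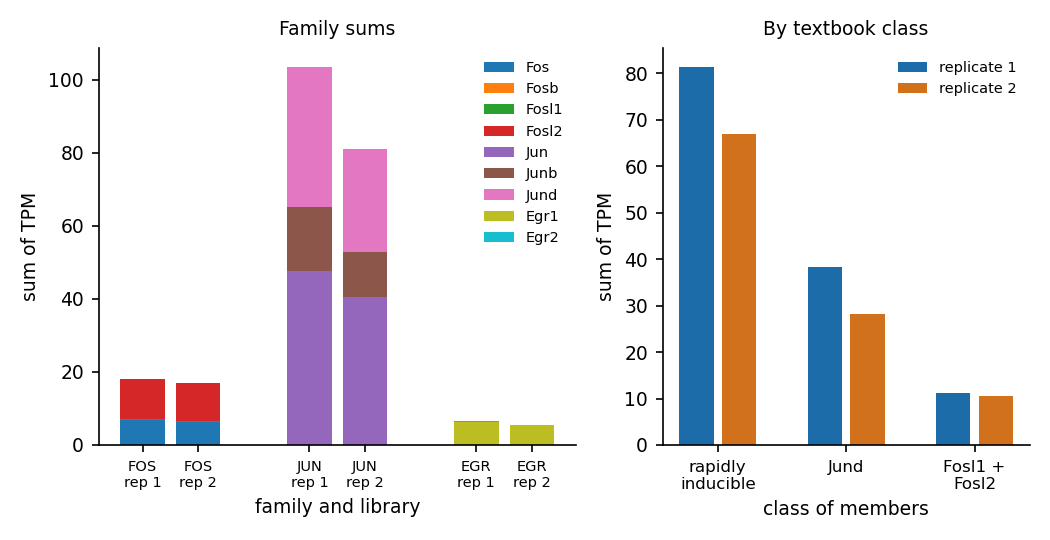
Sums of TPM per library (replicate 1 and replicate 2 side by side). The left panel stacks the genes of the FOS, JUN and EGR families, and the right panel gives the rapidly inducible genes, Jund, and the delayed pair Fosl1 and Fosl2. Atf3 is in the right panel only, and Fosb, Fosl1 and Egr2 are too low to be seen in the left one. The JUN bars reach 103.6 and 81.0, the FOS bars 18.1 and 16.9.

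The libraries were next compared gene by gene, to see whether constitutive and inducible members differed between them in the same way. The log2 ratio of replicate 2 over replicate 1 was taken from expected counts with TMM library sizes (a scaling that sets the typical gene to 0) and 0.5 added to each count. There is 1 library on each side, so no p-value can be given. Of the 10 genes, 6 had a mean count of 100 or more (Fos, Fosl2, Jun, Junb, Jund and Egr1), and 0 of these 6 were over 2-fold apart, against 0.298% of 12761 genes. A smaller difference, of more than 0.32 on the log2 scale, was also counted. By it 2 of the 6, Junb and Jund, were lower in replicate 2, against 4.15% of all genes, and 0 of the 6 were higher, against 3.28%. With spike-in library sizes, 4 of the 6 were lower by that much, against 36.3% of all genes. Junb, with 515 and 382 counts, had a log2 ratio of -0.45 (95% counting interval -0.65 to -0.26), and 1.65% of genes had a lower one. Jund, with 1794 and 1399 counts, had -0.38 (-0.48 to -0.28), and 2.68% of genes lay lower. The central 95% of genes ran from -0.39 to 0.36, so Junb lay just outside this span and Jund just inside it.

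The other members differed less. Jun had 2486 and 2246 counts and a log2 ratio of -0.17 (-0.25 to -0.09). Egr1 had -0.18 (-0.41 to 0.06), an interval that includes 0. Fosl2 had 1073 and 1067 counts, a log2 ratio of -0.03 (-0.15 to 0.09). Fos, the archetypal immediate early gene, had 224 and 227 counts and a log2 ratio of 0.00 to 2 decimals (-0.28 to 0.27). The intervals of Fos and Junb overlap between -0.28 and -0.26, and those of Fosl2 and Junb do not overlap. The median over the 6 was -0.17, against -0.01 over all genes, and all 6 were below 0, as were 51.9% of all genes. With DESeq2 size factors, which move every ratio by 0.01, Fos turns above 0. Atf3, with 90 and 72 counts, had -0.34 (-0.81 to 0.12). Fosl1, at 4 and 4 counts, had an interval from -2.45 to 2.40, so a difference of several-fold was not detectable at this depth.

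**Figure D3:**
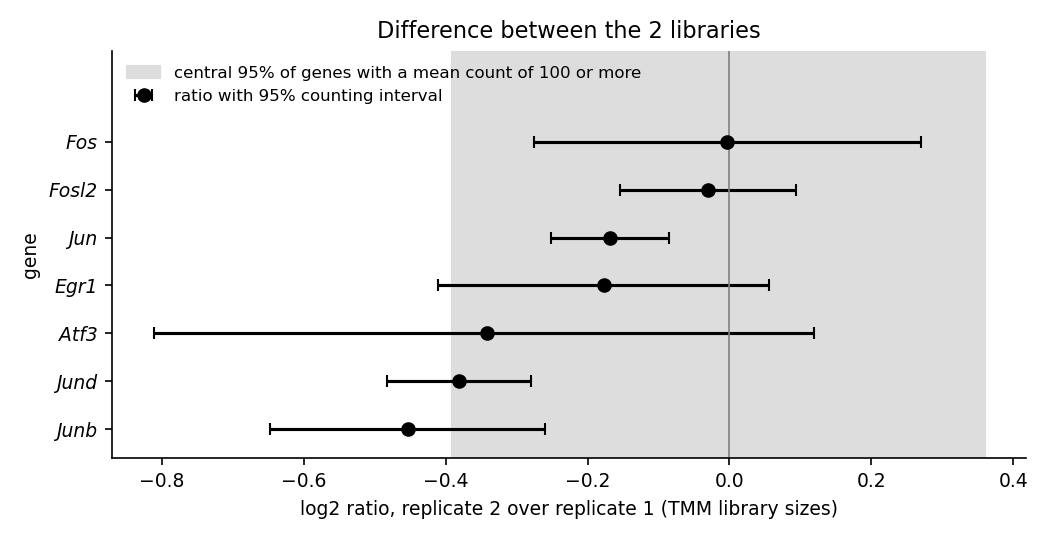
Log2 ratio of replicate 2 over replicate 1 for the 7 detected genes, with 95% counting intervals; the grey band is the central 95% of genes whose mean count reached 100, -0.39 to 0.36. Junb (-0.45) and Jund (-0.38) lie lowest, and Fos and Fosl2 lie at 0.00 and -0.03.

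The ratio of the constitutive gene Jund was next to that of the rapidly inducible Junb, and the ratio of the rapidly inducible Fos was next to that of the delayed Fosl2. In GENCODE M21, the deposited transcripts of Jun, Junb and Jund are annotated with 1 exon, while the main transcripts of the detected FOS genes have 4. The GC content of the top transcript was 62.6% for Junb and 67.1% for Jund, both among the 1267 genes highest in GC, against 51.9% for Fos and 53.1% for Fosl2. GC content is that of the M21 sequence, which for Jund has 1668 bases against a deposited length of 2878. The median log2 ratio of those 1267 genes (58.1% to 72.8% GC) was 0.00, and over 10 equal bins of genes by GC medians ran from -0.02 to 0.01. A bin median does not describe single genes, and the part of GC content or exon number in the ratios of Junb and Jund was not tested. Pancreas markers also differed between the libraries: 12 such genes summed to 781 TPM in replicate 1 and 45.9 TPM in replicate 2. The part of this pancreas difference in the levels and ratios of the members, Junb and Jund included, was not tested. A set of 6 leukocyte markers summed to 172 and 168 TPM, with log2 ratios from -0.23 for Lyz2 to 1.06 for the granulocyte gene Mpo (70.7 and 150 counts) and a median of 0.12; their part was not tested either.

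Antisense genes overlap Jun and Jund, and the sources used here do not say whether counting used strand. Jund shares 543 exonic bases (GENCODE M21) with Gm11175 on the opposite strand, which had 399 and 366 counts. The expected counts of Jund were not whole (1793.91 and 1399.14), and neither were those of Gm11175 (399.09 and 365.86), but their sums were, at 2193 and 1765. Reads were thus split between the pair by estimate. The log2 ratio of the summed pair was -0.34 (-0.43 to -0.24). Jun and its antisense gene Junos, which share 232 exonic bases, likewise summed to whole counts, 2513 and 2288, with a ratio of -0.16 (-0.24 to -0.08). Junos alone had 26.9 and 41.8 counts. Fosl1 shares 1163 exonic bases (GENCODE M21) with Ccdc85b. Both had whole counts, 4 and 4 for Fosl1 and 239 and 214 for Ccdc85b, so no split by estimate was seen. At 4 counts the level of Fosl1 is uncertain all the same. For Junb, the exon of the deposited transcript as annotated in GENCODE M21 shares no bases with its neighbour Prdx2.

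Annotated transcripts added little further structure, since 6 of the 10 genes have 1 transcript in the tables. Fosb is among these, so its shorter splice form, delta FosB, cannot be told apart here. Egr1 has 2 transcripts, and ENSMUST00000165033.1 held 90.8% of its TPM in replicate 1 and 92.9% in replicate 2. The full-length Fos transcript, ENSMUST00000021674.6, held 93.7% in replicate 1 and 100% in replicate 2. The remainder of replicate 1, 5.42 counts with a deposited posterior SD of 4.15 counts, was placed on a processed transcript. In Atf3 the form from the upstream promoter, ENSMUST00000195117.1, took 14.5% in replicate 1 and 0% in replicate 2, but this is 12.6 counts with a posterior SD of 16.4 counts. The Egr2 transcript highest in replicate 1, ENSMUST00000105438.4, took 85.6% there and 0% in replicate 2, where ENSMUST00000145754.3 took 87.1%. These are 6.86 and 2.56 counts, and the transcripts are 2864 and 773 bases long.

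The genes lie at these positions in GENCODE M21, which uses the mm10 assembly of the files. Fos (ENSMUSG00000021250.9) is at chr12:85473890-85477273 on the plus strand, Fosl2 (ENSMUSG00000029135.9) at chr5:32135801-32157842 on the plus strand, and Jun (ENSMUSG00000052684.4) at chr4:95049034-95052222 on the minus strand. Junb (ENSMUSG00000052837.5) is at chr8:84974484-84978718 on the minus strand and Jund (ENSMUSG00000071076.5) at chr8:70698949-70700616 on the plus strand. Atf3 (ENSMUSG00000026628.9) is at chr1:191170296-191218039 on the minus strand. Of the genes near the limit of detection, Fosb (ENSMUSG00000003545.2) is at chr7:19302696-19310051 on the minus strand, Fosl1 (ENSMUSG00000024912.5) at chr19:5447547-5455946 and Egr2 (ENSMUSG00000037868.11) at chr10:67535475-67542188, both on the plus strand. The deposited length of Jund, 2878 bases, is longer than this M21 gene (1668 bases) and equals the distance from the RefSeq start to the M21 end.

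Most other immediate early genes had a ratio below 0 as well. Of 30 on a list of such genes outside the AP-1 and EGR set, 25 were detected (34.9% of all genes), with median TPM of 10.0 and 8.38. Ier2 (58.6 ± 6.80), the proto-oncogene Myc (49.8 ± 2.43) and the antiproliferative gene Btg2 (43.8 ± 4.13) were highest in TPM. Of the 22 with a mean count of 100 or more, 20 had a log2 ratio below 0 (51.9% of all genes) and 2 were more than 0.32 lower (4.15%), with a median of -0.19. The lowest was Maff, a small MAF factor, at -0.50 (127 and 91 counts), and the highest the nuclear receptor gene Nr4a1 at 0.22 (304 and 359). Dusp1, a phosphatase that shuts off the MAP kinases and is itself an immediate early gene, had 472 and 390 counts and a ratio of -0.30. Below the filter, the activity-regulated gene Arc had 60 and 22 counts, a ratio of -1.45 (-2.25 to -0.74), a gene chosen after its values were seen. Egr4 had 0 counts in both libraries and Egr3 had 0 and 2.

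Several other bZIP factors that can pair with FOS, JUN or ATF3, or with one another, stood above Fosl2, the highest FOS gene. On a list of 20, 17 were detected (34.9% of all genes). Highest were Atf4 (89.7 ± 8.32 TPM), the oxidative stress factor Nfe2l2 (67.9 ± 3.90 TPM) and Atf2 (62.8 ± 1.96 TPM), a JUN partner. Of the BATF genes, whose proteins also pair with JUN, Batf3 was at 10.1 ± 0.113 TPM, Batf at 2.51 ± 1.06 TPM and Batf2 at 0.215 ± 0.064 TPM. Jdp2, which encodes a JUN-dimerizing protein, was at 0.700 ± 0.071 TPM. These 4 genes were singled out after their values were seen. Of 14 with a mean count of 100 or more, 9 had a ratio below 0 (51.9% of all genes), with a median of -0.05. Atf7 was highest at 0.14.

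Transcripts of upstream kinases and factors were detected as well. All 21 on a list were detected, against 34.9% of all genes. Among them were Srf, which binds the CArG box (6.15 ± 0.071 TPM), and the kinase gene Mapk3 (72.8 ± 0.544). The Srf partners Elk1 (6.14 ± 0.262), Elk3 (23.2 ± 1.34) and Elk4 (27.1 ± 0.714) were also among them. Map2k1, a MAP kinase kinase gene, was at 58.7 ± 2.33 TPM. The median log2 ratio of the 21 was 0.06, with 8 below 0 (51.9% of all genes). None was more than 0.32 lower (4.15%) or higher (3.28%). They ran from Mapk10, a JNK gene, at -0.25 to Rps6ka3, an RSK kinase gene, at 0.25. The EGR corepressors Nab1 and Nab2 were at 12.1 ± 0.382 and 7.61 ± 1.22 TPM, with ratios of 0.01 and -0.25. These signs are relative to the typical gene: spike-in library sizes move every ratio by -0.27.

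**Figure D4:**
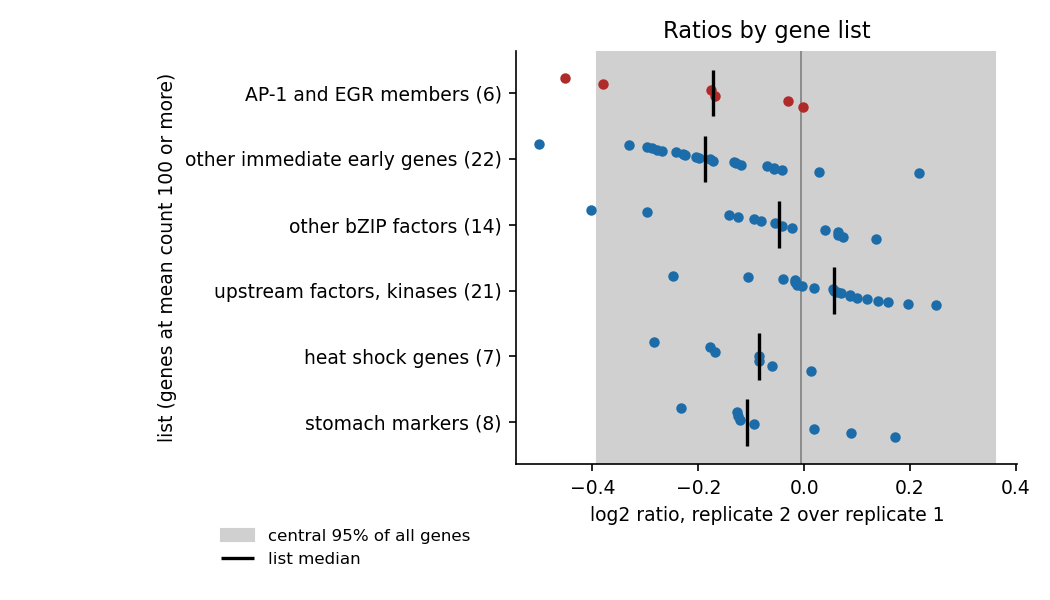
Log2 ratio of replicate 2 over replicate 1 for each gene whose mean count reached 100, by list, with the list median as a black bar, the central 95% of all genes as a grey band and the median of all genes as a line. Medians lie at -0.17 for the 6 AP-1 and EGR genes, -0.19 for 22 other immediate early genes and 0.06 for 21 upstream factors and kinases.

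Classical AP-1 target genes were a mixed group. Of 12, 6 were detected in both libraries (34.9% of all genes). They were led by the intermediate filament gene Vim (425 ± 21.8 TPM), the cyclin gene Ccnd1 (62.4 ± 7.16) and the protease inhibitor gene Timp1 (26.1 ± 0.438). The matrix protease genes Mmp3 and Mmp10 had 0 counts in both libraries, Mmp13 had 0 and 2, and the cytokine gene Il6 had 1 and 0. Of 6 with a mean count of 100 or more, 5 had a ratio below 0 (51.9% of all genes), with a median of -0.13. Of these 6, 1, Cd44, was more than 0.32 lower (-0.37), against 4.15% of all genes, and Timp1 was highest at 0.10. Heat shock genes had a median ratio of -0.09 over 7 genes, 6 of them below 0 (51.9% of all genes). Hspa8 (1702 ± 184 TPM), Hsp90aa1 (616 ± 45.4) and Dnaja1 (275 ± 15.1) were highest, and ratios ran from the stress-inducible Hspa1a at -0.28 (4.57 and 3.59 TPM) to Dnajb1 at 0.01. Stomach markers had a median of -0.11 over 8 genes, 5 of them below 0 (51.9% of all genes).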

How the data were processed

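Per the labels' protocols, RNA from each stomach was extracted with a mirVana kit, and a Smart-seq protocol was linked. The authors deposited, for each library separately, tables of genes and transcripts on mm10 with GENCODE M4, per the notes deposited with them; the sources used here do not give the aligner or quantifier. Deposited expected counts are estimated reads, not always whole; deposited TPM values include spike-ins in their total; deposited percent values give the part of a gene's TPM on each transcript. A further deposited column, the posterior SD, measures the uncertainty of an estimate in reads. Posterior mean values served as alternatives.

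Symbols came from GENCODE M21 (42462 of 43346 genes matched). The 26248 entries that carry a bare number in place of a gene ID, with 15.47 and 25 counts in replicates 1 and 2, and the spike-ins stayed out of library sizes. Ratios used TMM sizes (edgeR 4.0.16, R 4.3.3) and a pseudocount of 0.5, with exact Clopper-Pearson intervals (95%) of the 2 counts. GC content was that of each gene's most abundant transcript (M21). The steps were tested on simulated counts. DESeq2 1.42.0 gave alternative sizes, and Python 3.11.15 with scipy 1.17.1 the rest.

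The members and gene lists were chosen with earlier results of these data known. Named were all members and transcripts with 20% or more of a member. Of related lists, the 3 highest in TPM and the highest and lowest ratio at a mean count of 100 or more were named. Markers of pancreas and leukocytes are given as sums, with Lyz2 and Mpo named. Some genes this rule takes are not reported here. Dusp1, Egr3, Egr4, Srf, Elk1, Elk3, Elk4, Mmp3, Mmp10, Mmp13 and Il6 fall outside this rule and were named for their roles after their values were seen. Likeness of patterns was not measured, as there are 2 libraries of 1 group. Whether the 2 samples differ by more than technical spread cannot be told from n = 2.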

Additional observations from a re-analysis of the deposited data

How the results depend on the processing

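No paired analysis was possible because the series holds 1 group. Counts of members detected, members over 2-fold apart and members at their rank stayed within 1.5 times the value given under each alternative run for them, each library alone included. With spike-in library sizes the median ratio of members was -0.44. The counts of genes more than 0.32 lower in replicate 2 were recomputed under other scalings chosen after seeing the data: members numbered 4 with spike-in sizes in place of 2, and all genes 4634 with spike-in sizes and 1002 by deposited TPM in place of 529. At a mean count of 10 or more, 631 genes in place of 38 were over 2-fold apart. By expected counts, not divided by length, JUN exceeded FOS by 3.39-fold. Each library alone gave 4.80 and 5.72 for that ratio, 2.13 and 2.38 for the rapidly inducible sum over Jund. The ratio of Egr2 was -0.76 by counts (interval -3.05 to 1.15) and 0.50 by deposited TPM, which divides by its assigned length. Depth limits Fosb, Fosl1 and Egr2, with 7 counts or fewer in each library.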
